A study of Mus musculus with 12 samples.

Results

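The RNA of 10 genes was followed in mouse neutrophils. They were 7 Toll-like receptors (Tlr1, Tlr2, Tlr4, Tlr6, Tlr7, Tlr9 and Tlr13), the 2 partners of TLR4 in sensing lipopolysaccharide (Cd14 and Ly96) and the adaptor Myd88. They were chosen by name, with earlier results of these data known, so counts of called genes among them are descriptions. All 10 were found among the 28987 genes of the deposited table, and all 10 passed the filter on low values. Toll-like receptors recognise microbial molecules, and the receptors followed here all signal through MyD88, which recruits IRAK kinases and leads to NF-kappaB and MAP kinase activation. Neutrophils carry several of these receptors, which are known to prime the cells and to prolong their life at sites of inflammation.

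RNA was sequenced in 12 libraries from FVB mice, with 3 libraries in each of 4 groups. The groups were bone marrow (BM) and peritoneal (PT) cells of wild-type (WT) mice and the same cells of MRP8-Bcl2 mice, labelled MRP8/BCL2+ and called Bcl2 here. The latter mice carry a human Bcl-2 transgene driven by the myeloid MRP8 promoter, and their neutrophils resist apoptosis. All mice, those giving the marrow included, had received 2 mL of thioglycollate into the peritoneum to cause sterile inflammation, and the labels give collection 6 h later. The study's methods name other times, and nothing in the value columns tells the time of a library. The methods also take both sites from each mouse, but which libraries share a mouse is not given, so the sites were compared as unpaired. The labels name the source as macrophages, while the series' design text and the study give sorted neutrophils, and no ages are given. The samples carry replicate numbers in their titles, but the value columns do not, so libraries are named here by the number in their column (BM Bcl2 1 to 3, BM WT 4 to 6, PT Bcl2 7 to 9, PT WT 10 to 12).

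Levels are in TPM, the share of a library's transcripts corrected for transcript length. Differences are of log2(TPM + 1), where the added 1 shrinks the changes of weakly expressed genes. Reads assigned to the mouse Bcl2 gene were a check of the genotype, an indirect one because the transgene is human. They gave 0.219 to 2.37 TPM in WT, 166 to 333 TPM in the Bcl2 marrow and 82.8 and 58.6 TPM in the peritoneal libraries 7 and 8. In library 9 they gave 0.695 TPM, which went against its label, so called differences between the sites are also given without this library. Between 9735 and 14305 genes were above 0 per library. The 108 genes whose transcripts hold 31 or more A, or T, in a row took 50.8 to 65.6% of all TPM in PT libraries 8, 9, 10 and 11, but 15.5% in library 7, 20.0% in library 12 and 8.93 to 24.1% in the marrow libraries. The summed level of 6 neutrophil markers was 75518 to 329508 TPM in the marrow and 14184 to 65750 TPM in the peritoneum, where S100a8, Ly6g and S100a9 were lower and Csf3r was higher (averaged over genotypes). Most of the sum was S100a8 (38874 to 153516 TPM in the marrow, 4495 to 27252 TPM in the peritoneum) and S100a9 (36140 to 171462 TPM and 6004 to 31580 TPM). Cxcr2 (212 to 1864 TPM and 1290 to 3914 TPM) and Mmp9 were not called. The 10 macrophage markers summed to 48.6 to 223 TPM in the marrow and 163 to 714 TPM in the peritoneum, of which Cd68 was 30.7 to 208 TPM and 107 to 574 TPM. The other 9 summed to 14.7 to 116 TPM and 17.9 to 141 TPM. Of the 10, 8 were tested, Cd68 among them, and none was called. In WT, Adgre1 (F4/80) was at 0 to 6.94 TPM in the marrow and 11.7 to 14.7 TPM in the peritoneum and Csf1r at 12.1 to 26.9 TPM and 29.1 to 48.2 TPM, both without overlap, while in Bcl2 both overlapped. C1qa was at 0 in 5 of the 6 peritoneal libraries and Gata6 in 4 of them. Of the 4 monocyte markers, 3 were lower in the peritoneum (F13a1, Ly6c2 and Ccr2) and their summed level fell from 429 to 2004 TPM to 56.1 to 114 TPM. Markers of B cells (2 of 4 called higher), mast cells (3 of 4) and eosinophils (1 of 1 tested) were higher in the peritoneum, with mast cell markers at 633 TPM in library 12. The 2 tested erythroid markers were lower there, and none of 4 dendritic cell and 1 T and NK cell marker tested was called. The part of these cells in the results below was not tested, and fewer cells of a type cannot be told apart from less RNA per cell in such bulk samples.

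Sequence matters for reading Tlr1 and Tlr6, neighbouring paralogs that each pair with TLR2, to sense triacylated and diacylated lipopeptides respectively. Tlr1 lies at chr5:64924679-64933563 and Tlr6 at chr5:64952031-64960097, both on the minus strand of GRCm38. Over a stretch of 910 nt of coding sequence the pair differ at 10 bases, an identity of 98.9%. Just before this stretch they differ at 28 of 60 bases. The start of the stretch is shown for each gene, 5′ to 3′, with differing bases in capitals (GRCm38, GENCODE M21 annotation).
Tlr1, chr5:64925880-64925999: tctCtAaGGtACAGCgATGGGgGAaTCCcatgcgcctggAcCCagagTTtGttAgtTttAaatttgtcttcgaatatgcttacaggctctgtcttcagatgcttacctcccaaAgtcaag
Tlr6, chr5:64954171-64954290: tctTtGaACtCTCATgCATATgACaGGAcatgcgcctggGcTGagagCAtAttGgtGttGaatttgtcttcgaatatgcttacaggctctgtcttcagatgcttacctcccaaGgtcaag
The longest run without a difference was 229 nt, at chr5:64925537-64925765 in Tlr1 and chr5:64953828-64954056 in Tlr6, and is printed because a read inside it fits either gene.
Tlr1 and Tlr6: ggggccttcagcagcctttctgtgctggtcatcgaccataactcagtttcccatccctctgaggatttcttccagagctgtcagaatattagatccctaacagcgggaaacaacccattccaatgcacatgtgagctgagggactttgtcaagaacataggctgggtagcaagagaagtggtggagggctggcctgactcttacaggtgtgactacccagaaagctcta
Of the 31-base words of their transcripts, 20.0% of those of Tlr1 and 16.6% of those of Tlr6 occur in transcripts of another gene, and 607 words are shared by the pair. The split of reads between Tlr1 and Tlr6 is therefore uncertain, and so are their levels. Myd88 shares 8.93% of its words with Acaa1a, an overlapping gene on the other strand, and Ly96 1.67% and Tlr4 0.667% with other genes, while Tlr2, Tlr7, Tlr9, Tlr13 and Cd14 share none.

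Windows from 250 bases before to 50 after a start site were at hand from RefSeq (GRCm38.p6) for 6 of the 10 genes. The parts upstream of the first exon are shown for Tlr6 and Tlr13, which were higher in the peritoneum, and for Tlr2, which was not called, with motif letters in capitals.
Tlr6, chr5:64960098-64960298, minus strand: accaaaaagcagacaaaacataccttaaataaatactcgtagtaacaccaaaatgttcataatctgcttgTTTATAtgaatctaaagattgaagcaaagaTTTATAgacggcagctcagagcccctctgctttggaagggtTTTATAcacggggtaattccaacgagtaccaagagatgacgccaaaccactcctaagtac
Tlr13, chrX:106143025-106143203, plus strand: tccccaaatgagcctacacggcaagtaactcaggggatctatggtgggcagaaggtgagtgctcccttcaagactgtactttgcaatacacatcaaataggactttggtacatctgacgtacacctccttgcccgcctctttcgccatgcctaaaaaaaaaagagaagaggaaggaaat
Tlr2, chr3:83841768-83841858, minus strand: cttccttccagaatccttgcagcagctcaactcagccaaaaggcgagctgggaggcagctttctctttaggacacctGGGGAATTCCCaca
The motifs searched on both strands were PU.1 (GAGGAAGT), C/EBP (TTGCNNAA), AP-1 (TGANTCA), CRE (TGACGTCA), the TATA box (TATAAA) and NF-kappaB. The window of Tlr6 printed here held 3 TATA box matches, a motif in 13.6% of 32817 windows, and that of Myd88, which was not called, held 2. Another Tlr6 window, inside the annotated gene, held a C/EBP match and no TATA box. No capitals appear in the Tlr13 part, although the whole Tlr13 window held 1 C/EBP match, at the start site (10.8% of windows). The Tlr2 window held 3 NF-kappaB matches, and the capitals mark 2 that overlap, the other lying outside the printed part (8.46% of windows). The outer of 2 Tlr1 windows held a PU.1 match (3.2% of windows), the inner one no match, and that of Tlr9 a PU.1 and an AP-1 match (7.81% of windows). No CRE (1.79% of windows) was found in the windows of the 6 genes. A match is a string of letters and says nothing of binding.

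Cd14, the co-receptor that hands lipopolysaccharide to TLR4 and MD-2, was the highest of the 10 genes in the peritoneum and differed most between the sites. In WT it was at 31.3, 166 and 256 TPM in the marrow libraries 4, 5 and 6 and at 644, 527 and 2245 TPM in the peritoneal libraries 10, 11 and 12. In Bcl2 it was at 114, 35.9 and 35.3 TPM in the marrow libraries 1, 2 and 3 and at 1717, 603 and 462 TPM in the peritoneal libraries 7, 8 and 9. Every peritoneal library was above every marrow library, the lowest peritoneal value being 462 TPM and the highest marrow value 256 TPM. Cd14 stood between the 99.2 and the 99.8 percentile of tested genes in the peritoneal libraries and between the 75.5 and the 98.0 percentile in the marrow. Libraries 7 and 12, those with the smaller share of A- or T-run genes, held the highest peritoneal values.

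Tlr4, the lipopolysaccharide receptor itself (chr4:66827584-66930284, plus strand), separated the sites in every library. Its level was 77.2 ± 16.7 TPM (SD, n = 3) in BM WT and 43.8 ± 1.60 TPM (SD, n = 3) in BM Bcl2. In PT WT it was 215 ± 26.1 TPM (SD, n = 3) and in PT Bcl2 211 ± 61.7 TPM (SD, n = 3). The single marrow values ran from 42.1 TPM in library 3 to 92.8 TPM in library 5, and the peritoneal ones from 146 TPM in library 9 to 268 TPM in library 7, without overlap in either genotype.

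Ly96, which encodes MD-2, the small protein that binds lipopolysaccharide beside TLR4 (chr1:16688051-16709611, plus strand), separated the sites in WT but not in Bcl2. In WT it was at 5.68, 20.0 and 6.88 TPM in the marrow and at 115, 33.8 and 28.2 TPM in the peritoneum, so the sites did not overlap. In Bcl2 it was at 15.9, 33.7 and 16.5 TPM in the marrow and at 20.9, 8.97 and 24.3 TPM in the peritoneum, and the sites overlapped. One WT library, number 10, was more than 3 times as high as any other.

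**Figure D1:**
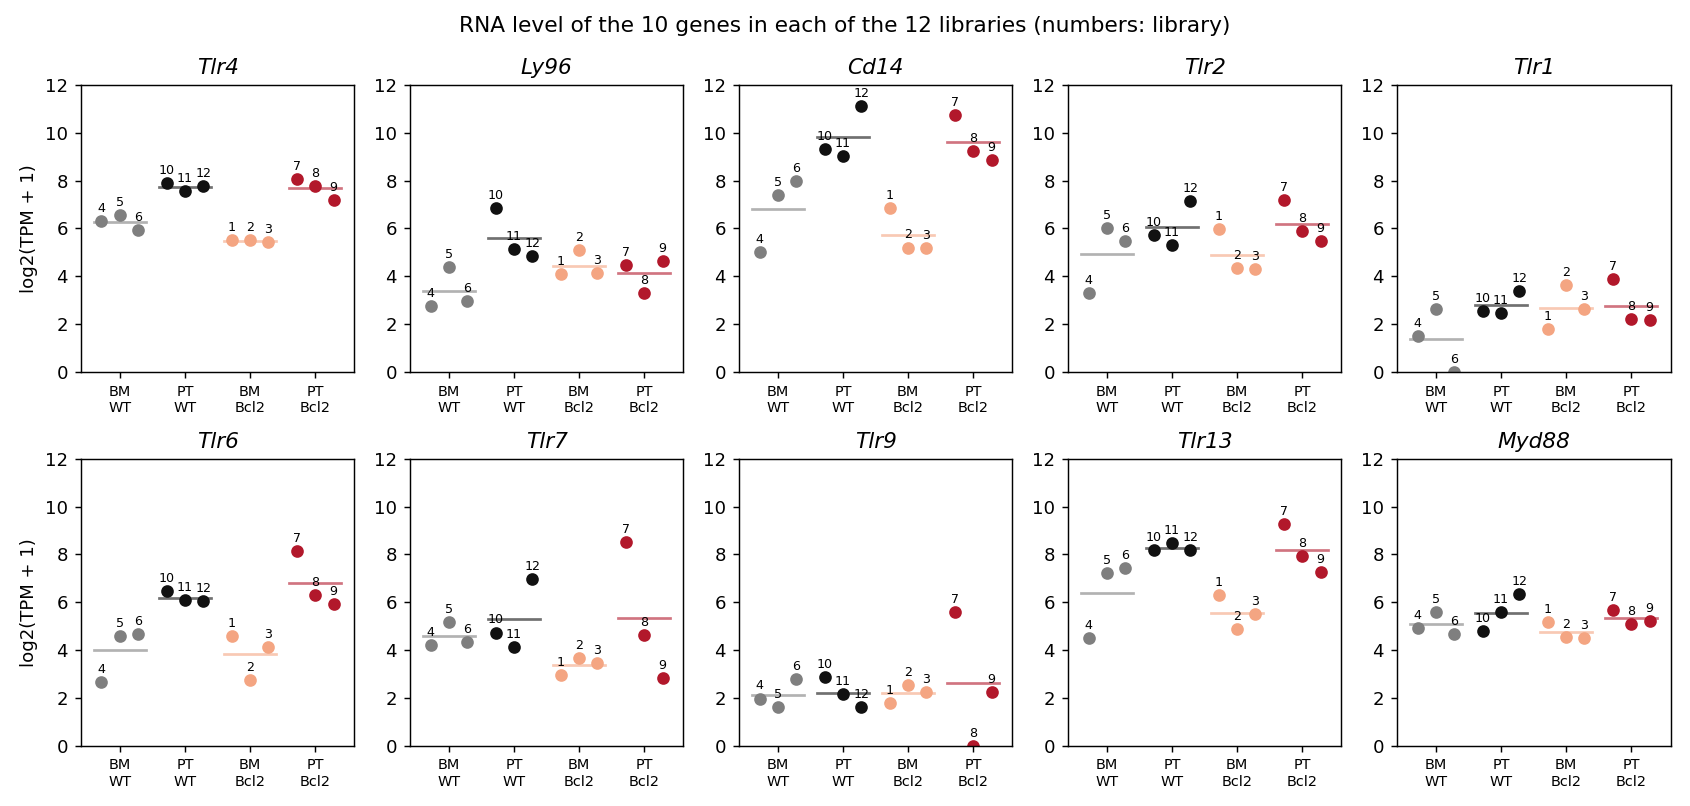
RNA level as log2(TPM + 1) (y axis) of each of the 10 genes in the 4 groups (x axis, BM bone marrow, PT peritoneum), with 1 point per library, its library number above it and a line at the group mean (n = 3). All PT points of Cd14, Tlr4 and Tlr6 lie above all BM points, while Tlr9, Tlr1 and Myd88 overlap.

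Tlr2 forms the lipopeptide receptors with Tlr1 or Tlr6 and lies at chr3:83836272-83841767, minus strand. In WT its marrow values were 8.90, 64.1 and 43.1 TPM and its peritoneal ones 51.5, 38.4 and 140 TPM. In BM Bcl2 it was at 62.6, 19.1 and 18.7 TPM and in PT Bcl2 at 144, 59.0 and 43.3 TPM. The sites overlapped in both genotypes, and libraries 7 and 12 again held the highest values.

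Tlr6 reached 5.37, 23.3 and 24.7 TPM in the WT marrow and 87.1, 66.9 and 64.4 TPM in the WT peritoneum. With the transgene it reached 22.9, 5.81 and 16.6 TPM in the marrow and 285, 77.8 and 60.5 TPM in the peritoneum. The lowest peritoneal library, at 60.5 TPM, was above the highest marrow library, at 24.7 TPM. Tlr1 was low throughout, from 0 in library 6 to 13.9 TPM in library 7, and its sites overlapped in both genotypes.

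Among the receptors of the endosome, Tlr13, which senses bacterial ribosomal RNA (chrX:106143204-106160493, plus strand), was the most abundant. Its WT values were 21.6, 149 and 171 TPM in the marrow and 287, 355 and 288 TPM in the peritoneum. Its Bcl2 values were 77.2, 28.8 and 44.5 TPM in the marrow and 622, 245 and 153 TPM in the peritoneum. The sites did not overlap within either genotype, but PT Bcl2 library 9, at 153 TPM, was below BM WT library 6, at 171 TPM.

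Tlr7, a receptor for single-stranded RNA (chrX:167304929-167330558, minus strand), was spread widely in the peritoneum. Marrow values were 17.7, 35.3 and 19.4 TPM for WT and 6.79, 11.7 and 10.1 TPM for Bcl2. In PT WT it was at 25.6, 16.5 and 126 TPM and in PT Bcl2 at 362, 23.7 and 6.11 TPM. Libraries 7 and 12 stood far above the other 10, which ran from 6.11 to 35.3 TPM.

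Tlr9, the receptor for unmethylated CpG DNA (chr9:106222598-106226883, plus strand), was at 2.05 to 6.29 TPM in 10 libraries, at 47.1 TPM in library 7 and listed at 0 in library 8. Myd88 (chr9:119335934-119341411, minus strand) was at 24.8 to 47.6 TPM in WT marrow, 26.6 to 79.1 TPM in WT peritoneum, 21.7 to 34.7 TPM in Bcl2 marrow and 33.5 to 49.4 TPM in Bcl2 peritoneum. Its groups overlapped between the sites in WT and in Bcl2.

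By median level the order in PT WT was Cd14 (644 TPM), Tlr13 (288), Tlr4 (218), Tlr6 (66.9), Tlr2 (51.5), Myd88 (47.6), Ly96 (33.8), Tlr7 (25.6), Tlr1 (4.78) and Tlr9 (3.42). Libraries of neighbours did not overlap from Cd14 down to Tlr6 and between Tlr7 and Tlr1, and the other neighbours in this order did overlap. In PT Bcl2 the first 6 places were the same, but all neighbours overlapped. In BM WT Cd14 (166 TPM), Tlr13 (149) and Tlr4 (79.2) also led, and in BM Bcl2 Tlr13 (44.5 TPM), Tlr4 (44.2) and Cd14 (35.9) did, with overlap between these neighbours. Further down, Myd88 and Tlr6 did not overlap in BM WT, nor did Cd14 and Myd88 or Ly96 and Tlr7 in BM Bcl2.

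Ratios within a library are free of the scaling between libraries. Tlr4 and Tlr13 together made up 51.1 to 80.7% of the summed TPM of the 7 receptors, the share of Tlr4 running from 15.4% in library 7 to 57.6% in library 4 and that of Tlr13 from 15.7% in library 4 to 52.8% in library 6. The 4 receptors of the cell surface held 39.4 to 69.3% of the sum in WT marrow against 44.3 to 54.6% in WT peritoneum. With the transgene the shares were 58.6 to 64.3% against 40.8 to 60.8%, so the balance of surface and endosomal receptors overlapped between the sites in both genotypes. Within the lipopeptide receptors, the ratio of Tlr6 to Tlr2 was 0.304 to 0.887 in the 6 marrow libraries and 1.32 to 1.98 in 5 peritoneal libraries, but 0.460 in library 12. The ratio of Cd14 to Tlr4 was 0.395 to 4.29 in the marrow and 2.68 to 10.3 in the peritoneum. Ly96 was below Tlr4 in all 12 libraries, at a ratio of 0.0407 to 0.746.

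**Figure D2:**
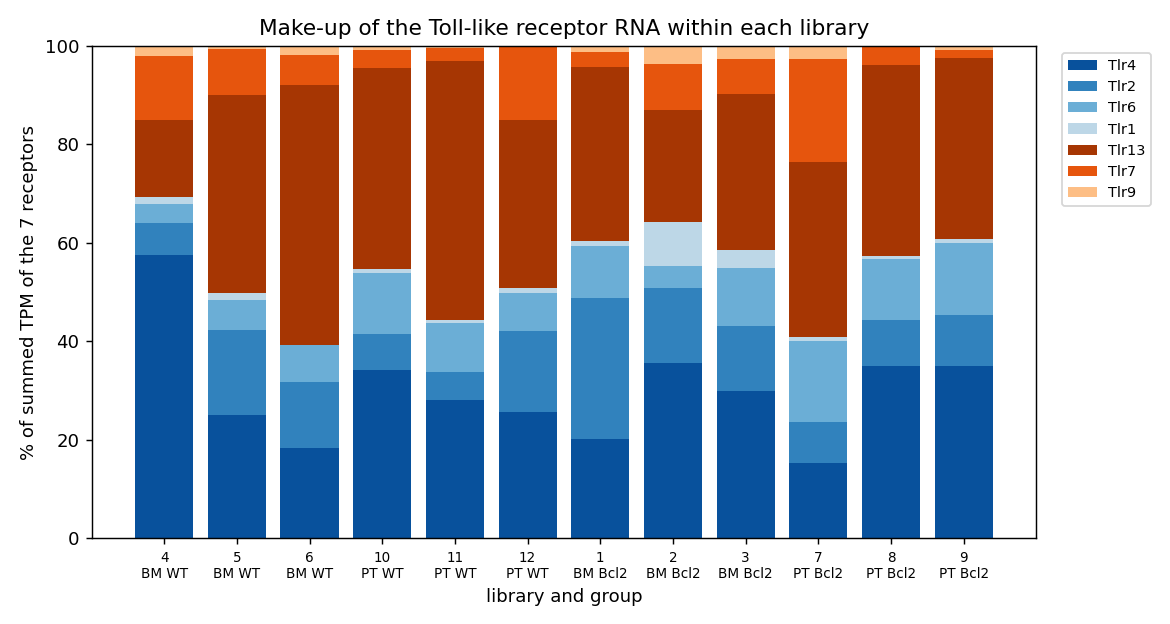
Share of each of the 7 receptors in their summed TPM (y axis, percent), with 1 bar per library (x axis). Blue shades are the receptors of the cell surface and orange shades those of the endosome. The orange part is largest in BM WT library 6, where Tlr13 alone reaches 52.8%, and Tlr7 is largest in PT Bcl2 library 7 (20.8%).

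The first question was whether the genes differed between neutrophils that had reached the inflamed peritoneum and those in the marrow. Averaged over the genotypes, 4 of the 10 were called higher in the peritoneum (limma, Benjamini-Hochberg adjusted p under 0.05 and at least 2-fold) and none lower, where 5.13% of all 13456 tested genes were called higher and 14.1% lower. They were Cd14 (log2 difference 3.45, SE 0.57, adjusted p = 0.00105), Tlr6 (2.59, SE 0.52, adjusted p = 0.00392), Tlr13 (2.24, SE 0.52, adjusted p = 0.00868) and Tlr4 (1.84, SE 0.32, adjusted p = 0.0014). For 3 of them (Cd14, Tlr6 and Tlr4) all 6 peritoneal libraries were above all 6 marrow libraries, which held for 2.58% of all genes. Each was called in all 12 fits without 1 library, and without library 9 the differences were 3.64, 2.80, 2.47 and 1.96 for Cd14, Tlr6, Tlr13 and Tlr4. The median over the 10 genes was 1.27, beside -0.40 over all genes. Between the sites Tlr2 differed by 1.21 (SE 0.56, adjusted p = 0.139), Tlr7 by 1.33 (SE 0.79, adjusted p = 0.247) and Ly96 by 0.97 (SE 0.51, adjusted p = 0.187), none of them called.

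In Bcl2 alone the same 4 genes were called higher, against 2.31% of all genes called higher and 19.1% called lower. The differences were 3.87 (SE 0.81, adjusted p = 0.00604) for Cd14, 2.97 (SE 0.74, adjusted p = 0.0134) for Tlr6, 2.60 (SE 0.74, adjusted p = 0.0239) for Tlr13 and 2.20 (SE 0.45, adjusted p = 0.00547) for Tlr4. These were also the 4 whose libraries did not overlap, as 5.18% of all genes did in this direction. Without library 9, whose Bcl2 level was that of WT, all 4 were called, with differences of 4.25, 3.40, 3.05 and 2.44, and Tlr7 was called in addition (adjusted p = 0.0466). The call of Tlr13 was lost without library 2, 3 or 7, with adjusted p of up to 0.0864, and with no filter on low values (adjusted p = 0.0514), and that of Tlr6 without library 2 (adjusted p = 0.0603). The median over the 10 genes was 1.63, while the median over all genes was -1.02.

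In WT none of the 10 genes was called by limma, where 1.59% of all genes were called higher and 1.22% lower. At an unadjusted p under 0.05 there were 5, which is also the number whose peritoneal libraries were all above the marrow libraries (Cd14, Ly96, Tlr6, Tlr13 and Tlr4), beside 16.5% and 14.9% of all genes. Cd14 differed by 3.04 (SE 0.81, adjusted p = 0.0596), Ly96 by 2.24 (SE 0.72, adjusted p = 0.116) and Tlr6 by 2.21 (SE 0.74, adjusted p = 0.136). For Tlr13 the difference was 1.89 (SE 0.74, adjusted p = 0.207) and for Tlr4 1.49 (SE 0.45, adjusted p = 0.0981). With the 108 A- or T-run genes left out and TPM rescaled, Cd14 (adjusted p = 0.00989), Tlr4 (adjusted p = 0.0230) and Tlr6 (adjusted p = 0.0337) were called. Cd14 was also called without library 7 (adjusted p = 0.0441), a Bcl2 library that enters only through the shared estimate of spread. The median over the 10 genes was 1.44 and over all genes 0.22.

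**Figure D3:**
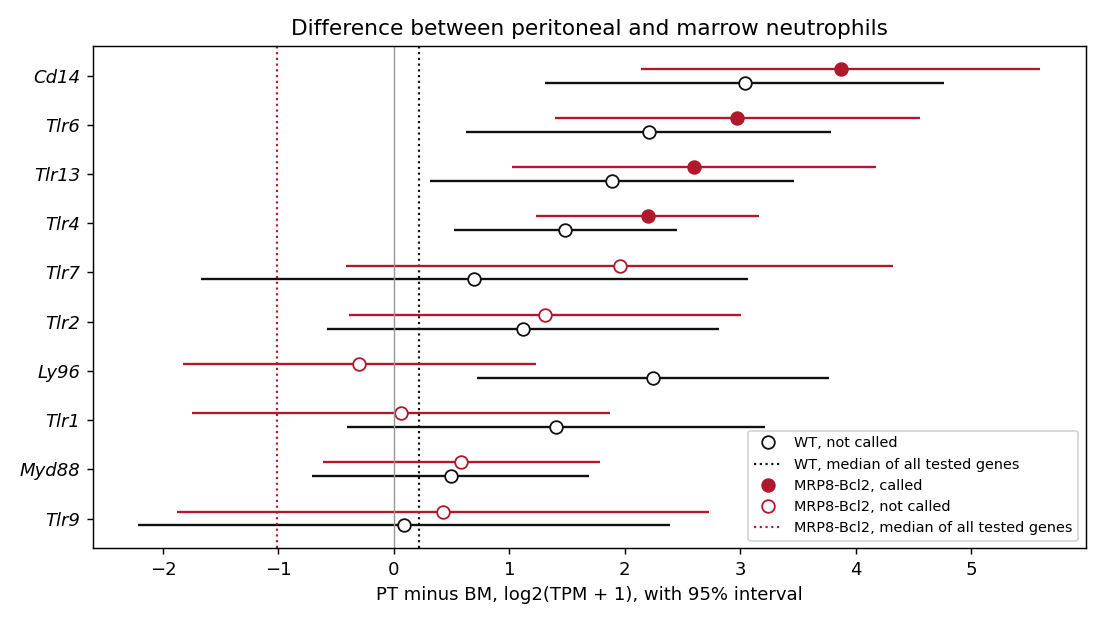
Difference between peritoneum and marrow on the log2(TPM + 1) scale (x axis) for each gene (y axis), in WT (black) and MRP8-Bcl2 (red), with 95% intervals from the limma fit. Filled points are called and open points are not, and dotted lines mark the median over all tested genes, 0.22 in WT and -1.02 in MRP8-Bcl2. Cd14, Tlr6, Tlr13 and Tlr4 are filled in MRP8-Bcl2 and no gene is filled in WT.

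The second question was whether the Bcl2 transgene went with another response between the sites. No gene of the 10 was called by limma for the difference between the genotypes in the peritoneum minus marrow change, as 0.0149% of all genes were. Only Ly96 had an unadjusted p under 0.05, beside 16.9% of all genes, with a difference of -2.54 (SE 1.01, unadjusted p = 0.0240, adjusted p = 0.258, 95% interval -4.70 to -0.38), beside a median of -1.18 over all genes. Its change was 2.24 in WT and -0.30 in Bcl2 (SE 0.72, adjusted p = 0.786), and the latter turned to 1.29 when libraries were centred on their medians. For the 4 genes called in Bcl2 the intervals of this difference covered 0, so that a call in Bcl2 and none in WT does not show that the genotypes differ. Tlr7 had the highest value, 1.26 (SE 1.57, adjusted p = 0.668), which turned to -0.33 without library 7. Without library 9 the value of Ly96 was -2.80 (SE 1.09, adjusted p = 0.224) and again none of the 10 was called.

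Within the marrow no gene was called between Bcl2 and WT by limma, beside 0.0149% of all genes called higher and 0.00743% lower. None had an unadjusted p under 0.05, beside 7.36% of all genes. The 10 differences ran from -1.22 for Tlr7 (SE 1.11, adjusted p = 0.778) to 1.32 for Tlr1 (SE 0.85, adjusted p = 0.723). The Bcl2 libraries of Tlr4 and Tlr7 were all below the WT libraries, as in 1.17% of all genes. For Tlr4 the values were 42.1 to 45.2 TPM in Bcl2 and 59.6 to 92.8 TPM in WT.

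Within the peritoneum none of the 10 was called either, and none had an unadjusted p under 0.05 (12.7% of all genes did), while 0.0% of all genes were called higher and 0.0297% lower. The differences ran from -1.47 for Ly96 (SE 0.72, unadjusted p = 0.0582, adjusted p = 0.410) to 0.61 for Tlr6 (SE 0.74, adjusted p = 0.741). Without library 9 no gene was called either, and Ly96 differed by -1.73 (SE 0.81, adjusted p = 0.338). Ly96 was the one gene whose Bcl2 libraries were all below the WT libraries, as in 18.8% of all genes.

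Other genes of the pathway were taken from 6 lists with 48 genes, of which 47 were in the table and 44 were tested. Averaged over the genotypes 5 were called higher and 3 lower, in WT 2 and 0, and in Bcl2 3 and 3. Of all tested genes 5.13% were called higher and 14.1% lower averaged over the genotypes, 1.59% and 1.22% in WT, and 2.31% and 19.1% in Bcl2. Of the 5 other Toll-like receptors, Tlr11 and Tlr12 were listed at 0 in all libraries. None of Tlr3, Tlr5 and Tlr8 was called, and Tlr8, a neighbour of Tlr7 on chromosome X, was at 6.62 to 160 TPM. These lists were chosen with results of these libraries known, so their counts are descriptions.

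Among the 16 kinases and ubiquitin ligases, Irak2, a kinase that MyD88 recruits, had the largest difference. WT values were 4.73, 7.34 and 26.4 TPM in the marrow and 185, 148 and 203 TPM in the peritoneum. Bcl2 values were 22.0, 12.2 and 10.8 TPM in the marrow and 624, 103 and 113 TPM in the peritoneum. It rose in WT by 4.02 (SE 0.74, adjusted p = 0.0106) and in Bcl2 by 3.68 (SE 0.74, adjusted p = 0.00501), without overlap, the WT call being lost without library 4 or 10 (adjusted p of up to 0.0577). Without library 9 the Bcl2 difference was 4.06 (adjusted p = 0.00699). Map3k8, the kinase TPL2, differed by 1.70 averaged over the genotypes (SE 0.54, adjusted p = 0.0412) and Tab1, a partner of the kinase TAK1, by -1.17 (SE 0.37, adjusted p = 0.0389). Those 2 calls were lost in 9 and 10 of the 12 fits without 1 library, that without library 9 included (adjusted p = 0.0575 and 0.0647). Tab1 was low, at 0 to 1.65 TPM in BM WT and 0 to 0.662 TPM in PT WT. In BM Bcl2 it was at 1.99 to 4.03 TPM and in PT Bcl2 at 0 in every library. By limma it differed by -0.29 in WT (SE 0.53, adjusted p = 0.835) and by -2.06 in Bcl2 (SE 0.53, adjusted p = 0.0147). That Bcl2 call was lost with libraries centred on their medians (-0.47, adjusted p = 0.541) and with quantile normalization (-1.06, adjusted p = 0.123). The median of the list was 0.22 averaged over the genotypes.

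Of the 8 tested brakes on the pathway, 2 were called higher averaged over the genotypes. Tnfaip3, which encodes the ubiquitin-editing enzyme A20, ranged over 7.35 to 8.25 TPM in the WT marrow, 43.6 to 164 TPM in the WT peritoneum, 4.24 to 7.30 TPM in the Bcl2 marrow and 75.8 to 230 TPM in the Bcl2 peritoneum. It rose by 3.19 in WT (SE 0.62, adjusted p = 0.0139) and by 4.22 in Bcl2 (SE 0.62, adjusted p = 0.00118), the WT call being lost without library 4, 10 or 12 (adjusted p of up to 0.0597). Without library 9 the Bcl2 difference was 4.58 (adjusted p = 0.00209). Nfkbia, the NF-kappaB inhibitor that NF-kappaB itself induces, rose by 2.19 averaged over the genotypes (SE 0.48, adjusted p = 0.00653), and by 2.37 without library 9 (adjusted p = 0.00685). In neither genotype alone did limma call it, with 2.67 in WT (SE 0.68, adjusted p = 0.0510) and 1.71 in Bcl2 (SE 0.68, adjusted p = 0.0854). The median of the list was -0.15.

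Lbp, the serum protein that delivers lipopolysaccharide to CD14, was the one of 9 accessory, chaperone and trafficking genes that was called, and it was lower. Its WT libraries held 92.2, 22.7 and 18.9 TPM in the marrow and 6.41 to 13.1 TPM in the peritoneum. Its Bcl2 marrow libraries held 113, 296 and 135 TPM and the peritoneal ones 4.41, 3.62 and 17.4 TPM. It fell in Bcl2 by 4.43 (SE 0.74, adjusted p = 0.0021) and differed by -1.75 in WT (SE 0.74, adjusted p = 0.251). Without library 9, the highest of the Bcl2 peritoneal libraries, the Bcl2 difference was -5.06 (adjusted p = 0.0021). Cd14 and Lbp, which act in sequence on the same ligand, stood in opposite orders between the sites, and in neither genotype did the sites overlap for either gene.

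Pik3ap1, the adaptor BCAP, which restrains Toll-like receptor signals, was the one called of 4 tested adaptors, higher by 1.74 averaged over the genotypes (SE 0.50, adjusted p = 0.0248), and lost this call without library 3 or 5. Without library 9 it differed by 1.97 (adjusted p = 0.0186). Irf8, a transcription factor of monocytes and dendritic cells, was the one called of 4 interferon regulatory factors, lower by 1.96 (log2 difference -1.96, SE 0.62, adjusted p = 0.0375). The call was made in 5 of 12 fits without 1 library, that without library 9 among them (-2.06, adjusted p = 0.0452). It was lost with libraries centred on their medians (-1.28, adjusted p = 0.153) and with quantile normalization (-1.26, adjusted p = 0.182). The medians of the 4 adaptors, the 4 interferon regulatory factors, the 9 accessory genes and the 3 other receptors were 0.15, 0.65, -0.47 and 0.40, beside -0.40 over all genes.

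**Figure D4:**
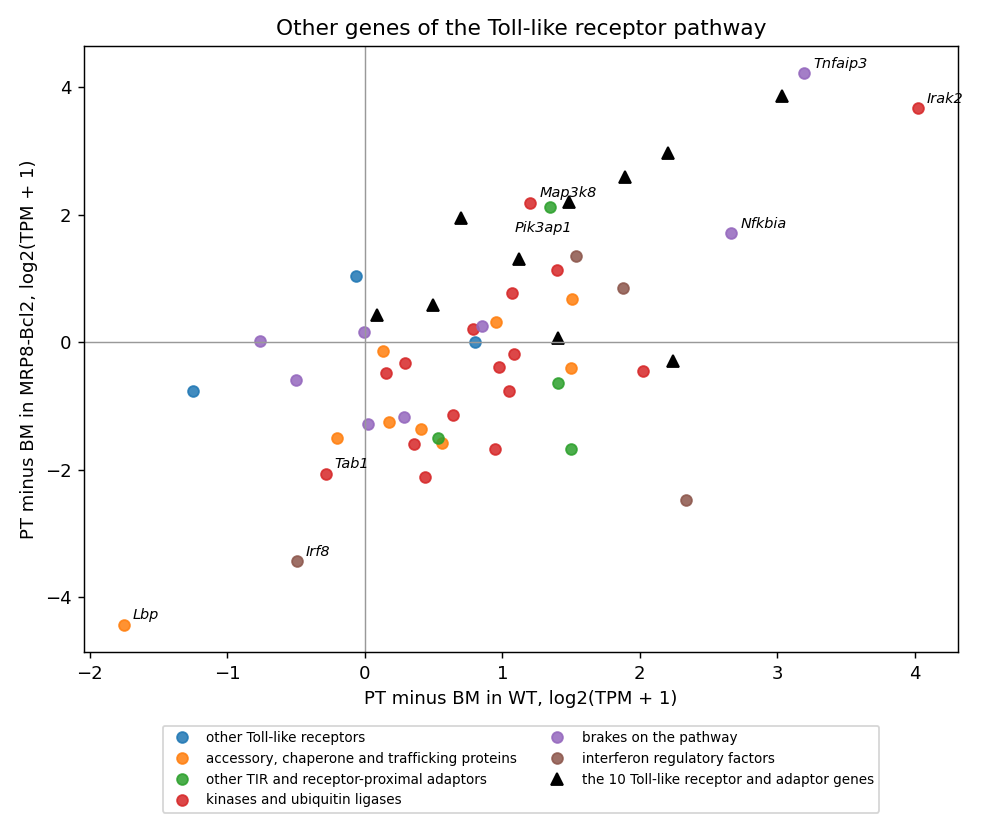
Peritoneum minus marrow difference on the log2(TPM + 1) scale in WT (x axis) and in MRP8-Bcl2 (y axis), with 1 circle for each of the 44 tested pathway genes, coloured by list, and 1 black triangle for each of the 10 genes. Names mark the 8 pathway genes called in WT, in Bcl2 or averaged over both. Irak2 (4.02 and 3.68) and Tnfaip3 (3.19 and 4.22) lie in the upper right and Lbp (-1.75 and -4.43) in the lower left.

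The genes whose levels ran most like Cd14 over the 12 libraries were Clec4d (Pearson r = 0.987, n = 12), a C-type lectin receptor, Btg1 (r = 0.974), an anti-proliferative gene, and St3gal6 (r = 0.970), a sialyltransferase. Clec4d was at 24.1 to 313 TPM in the marrow and at 574 to 2536 TPM in the peritoneum. For Tlr9, the member that differed least between the sites, they were Maml1 (r = 0.941, n = 12), Ino80d (r = 0.930) and Smcr7l (r = 0.901). All 3 were highest in library 7 and lowest in library 8, as Tlr9 was. These values describe likeness over libraries that share groups and scaling, and each list is the top 3 of 13456 genes.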

How the data were processed

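The authors sorted cells into Trizol, amplified the cDNA, sequenced it in pairs and ran AltAnalyze with its default settings. Per the file headers the deposited table holds log2 values, which are log2(TPM + 1) per gene and library. The genome build and annotation release were not given in the sources used here, and coordinates come from GENCODE M21 (GRCm38) by Ensembl gene ID. TPM keeps no read totals, so depth is unknown. Columns of the authors' own averages, fold changes and p-values were not used as results, and 2 value columns of 1 library with no sample name were left out.

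The 13456 genes that reached 1 TPM in 3 or more libraries were fitted with limma 3.58.1 in R 4.3.3 (4 groups in 1 fit, 8 residual degrees of freedom, eBayes with trend), tested on simulated data, with Benjamini-Hochberg adjustment over all genes. Calls needed an adjusted p under 0.05 and at least 2-fold, or the adjusted p alone for the difference of differences. The study took marrow and peritoneal cells from each mouse, but the columns name no mouse, so the fit is unpaired and p-values measure the spread between these samples. The 10 genes, the pathway lists and the marker lists were chosen with earlier results of these data known. Named pathway genes are those called between the sites, at most 4 per list, those listed at 0 throughout, and the 3 genes most correlated with the most and the least changed gene. Outside this rule, the uncalled receptors Tlr3, Tlr5 and Tlr8 were named as well.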

Additional observations from a re-analysis of the deposited data

How the results depend on the processing

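Alternatives were a pseudocount of 0.1, no filter, a filter at 5 TPM, median centring, quantile normalization, the 108 A- or T-run genes left out, eBayes without trend, a fit of the compared groups alone, an adjusted p alone, an adjusted p under 0.01, and each library left out. Of 260 alternative counts of the 10 genes called, 255 stayed within 1.5 times. This share says little, because most of these counts were 0 in the main fit and stayed at 0. A rise from 4 to 6 was also scored as within 1.5 times. In WT the count called higher went from 0 to 1 with the filter at 5 TPM, to 3 without the A- or T-run genes, and ran from 0 to 1 with libraries left out (1 without library 7). In Bcl2 it went from 4 to 2 at an adjusted p under 0.01 and ran from 2 to 5 with libraries left out, 2 being without library 2. Averaged over the genotypes it stayed at 4 in all 12 such fits. With centring the count in Bcl2 was 6, as limma also called Tlr2 (adjusted p = 0.0451) and Myd88 (adjusted p = 0.0240). Averaged, it was 6 with centring, with Ly96 (adjusted p = 0.0453) and Myd88 (adjusted p = 0.0470) called in addition. Without the A- or T-run genes the averaged count was 5, with Tlr2 called in addition (adjusted p = 0.0215). Of 780 alternative differences of single genes among the 10, 744 kept direction and side of the threshold, 11 became called, 7 lost the call and 18 changed sign. For the called pathway genes 433 of 517 such differences kept both, 15 became called, 68 lost the call and 1 changed sign. In WT Tlr9 changed to -0.13 with centring and -0.0386 with quantile normalization, and with libraries left out ran from -0.24 to 0.42, while Tlr7 ran from -0.15 to 1.27 and Tab1 from -0.60 to 0.10. In Bcl2 Tlr1 ran from -0.51 to 0.53, Tlr9 from -1.06 to 1.73 (-0.47 with the pseudocount of 0.1) and Ly96 from -0.56 to 0.11 (1.29 with centring, 0.75 with quantile normalization, 0.42 without the A- or T-run genes). Averaged, Tlr9 ran from -0.49 to 0.91 (-0.18 with the pseudocount of 0.1). The genotype difference of Tlr7 ran from -0.33 to 2.50 and the peritoneal Bcl2 minus WT difference of Tlr6 from -0.072 to 1.04. The cause was not tested. Scaling moved the median over all genes in Bcl2 from -1.02 to 0.57 with centring, -0.0001 with quantile normalization and -0.55 without the A- or T-run genes, and its calls from 311 higher and 2567 lower to 1636 and 467, 678 and 779, and 543 and 1088. Cd14 and Tlr4 kept their Bcl2 calls under every alternative. No paired analysis was possible because, although both sites were taken from each mouse, the value columns carry no mouse or replicate number.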

Other observations

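Marrow libraries of 1 group differed in several of the genes together. Cxcr2, a chemokine receptor of mature neutrophils, was at 253, 1864 and 1730 TPM in BM WT libraries 4, 5 and 6 and at 1493, 399 and 212 TPM in BM Bcl2 libraries 1, 2 and 3. In the same order Cd14 was at 31.3, 166, 256, 114, 35.9 and 35.3 TPM, Tlr13 at 21.6, 149, 171, 77.2, 28.8 and 44.5 TPM, and Tlr2 at 8.90, 64.1, 43.1, 62.6, 19.1 and 18.7 TPM. Tlr4, at 79.2, 92.8, 59.6, 44.2, 45.2 and 42.1 TPM, was instead lower in each Bcl2 library than in each WT library. The pattern was noticed in the values, and no test was made of it.

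Library 7 held the highest level of Tlr1, Tlr2, Tlr4, Tlr6, Tlr7, Tlr9 and Tlr13, with 1741 TPM over the 7 receptors beside 127 to 848 TPM in the other 11 libraries, and it had the fewest genes above 0 (9735).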
